A study of Mus musculus with 6 samples.

Results

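Genes that drive and carry out the cell division cycle were compared between 3 lines of mouse embryonic stem (ES) cells. The group held 50 named genes: cyclins and their kinases, the inhibitors of those kinases, the pocket proteins and E2F factors, the proteins that license and copy DNA, and the proteins of mitotic entry, the spindle checkpoint and chromosome segregation. A gene was measured by the probe set that the array's annotation assigned to it alone, and by the brightest such probe set where there were several. By this rule 49 of the 50 genes were measured, out of 19938 genes on the array, and Ccnb1 was not analysed here.

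The study concerned how well the parental pronuclei of the mouse zygote support reprogramming. Its lines ♂M-1, ♂M-3 and ZM-1 are labelled as chromosome transfer ES cells, and the prefixes ♂M and ZM are not spelled out. All 3 lines were grown on gelatin in DMEM with LIF and 2 inhibitors, PD0325901 against MEK and CHIR99021 against GSK3β. Every line had 2 biological repeats, for 6 whole-transcript arrays in all. There was 1 ZM line, so a difference between line types and a difference between single lines cannot be told apart.

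Cyclins bind and activate cyclin-dependent kinases (CDKs). D-type cyclins with Cdk4 or Cdk6, and then cyclin E with Cdk2, phosphorylate the pocket proteins, which releases E2F factors to switch on genes for DNA synthesis. Cyclin B with Cdk1 drives entry into mitosis. ES cells are known for a short G1 phase, and signalling through MEK and ERK is a known inducer of D-type cyclins.

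Values are the deposited intensities, a linear measure of probe brightness in the units of the array. A difference is given in log2 units of the intensity plus 1, with the line named first minus the line named second, so that 1 log2 unit is a doubling, and a fold is the same difference on a linear scale. A gene was called when its two-sided limma test had a p-value, adjusted by the Benjamini-Hochberg method over all 19938 genes, under 0.05. Those p-values set a difference against the spread between the 2 repeats of a line. That spread was pooled over the lines and moderated by limma with the spread of all genes. Intensities of different probe sets are not directly comparable, so the levels of single named genes are not set against each other. A gene's place among all genes on the array, or a sum over genes, is a rough description only.

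All 49 genes lay above the median intensity of the genes on the array, and 31 lay above its 90th percentile. The repeats of a line differed in these genes by a median of 0.07 log2 units for ♂M-1, 0.05 for ♂M-3 and 0.05 for ZM-1, where all genes gave 0.09, 0.08 and 0.10. The largest gap between repeats was 0.25 for Ccnd2 in ♂M-1, 0.20 for Ccnb2 in ♂M-3 and 0.50 for E2f2 in ZM-1. All 10 ES cell markers lay above the median of all genes in the mean of the 6 arrays, among them the pluripotency factor Pou5f1, with 3683 and 3738 in ♂M-1, 3561 and 3667 in ♂M-3, and 3872 and 3878 in ZM-1. Markers of fibroblasts differed between the lines. Summed over 12 genes, their intensity was 4278 and 4010 in ♂M-1, 2743 and 2664 in ♂M-3, and 4610.2 and 4468 in ZM-1. Of these 12 markers, 11 were called lower in ♂M-3 than ZM-1, 3 lower in ♂M-1 than ZM-1, and 10 higher in ♂M-1 than ♂M-3, with none called in the opposite direction. Of the 10 ES cell markers, 4 were called higher in ♂M-3 than ZM-1 and 1 in ♂M-1 than ZM-1, and 2 were lower in ♂M-1 than ♂M-3. Over all genes, 8.66% were called higher and 7.2% lower in ♂M-3 against ZM-1. The same shares were 1.89% and 2.53% in ♂M-1 against ZM-1, and 3.22% and 3.32% in ♂M-1 against ♂M-3.

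Most cell cycle genes lay close together in the 3 lines. In ♂M-1 against ZM-1, 3 of 49 genes were called, Haus4, Ccnd2 and Cdk6, all higher in ♂M-1. That is 6.12% of them, where 4.41% of all genes were called, 1.89% higher and 2.53% lower. In ♂M-3 against ZM-1, 4 genes were higher in ♂M-3, Haus4, Cdkn1b, Cdk6 and Cdc25b, and 3 were lower, Cdk1, Rb1 and Cdkn2b. Those 7 genes make 14.3%, beside 15.9% of all genes, 8.66% higher and 7.2% lower. In ♂M-1 against ♂M-3, 4 were higher in ♂M-1, Ccnd2, Rb1, Haus4 and Cdkn2b, and 1 was lower, Cdkn1b, which makes 10.2% beside 6.54% of all genes, 3.22% higher and 3.32% lower. In all, 8 genes were called in at least 1 comparison and 41 in none.

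Leaving out 1 array of the compared lines lowered the count of calls, both among these genes and over all genes. Each such fit has fewer arrays to test with. In ♂M-1 against ZM-1, 1 gene was called without ♂M-1 repeat 2, without ZM-1 repeat 1 or without ZM-1 repeat 2. In ♂M-3 against ZM-1, the count was 3 without ♂M-3 repeat 1, 2 without ♂M-3 repeat 2 and 4 without ZM-1 repeat 2. In ♂M-1 against ♂M-3, no gene was called by limma without ♂M-1 repeat 2, and 1 was called without either repeat of ♂M-3. In such a fit the remaining array of a line is assumed to vary as the other lines do. With all 6 arrays, unadjusted limma p-values were under 0.05 for 11, 11 and 12 of the 49 genes in the 3 comparisons, taken in the order above. Over all 19938 genes they were under 0.05 for 3981, 5980 and 3943, which is the background for every such count below.

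Differences were small in size, and near those of all genes. The median log2 difference of the 49 genes was −0.03 in ♂M-1 against ZM-1, 0.02 in ♂M-3 against ZM-1 and −0.05 in ♂M-1 against ♂M-3, and the medians over all genes were −0.01, 0.00 and −0.02. After quantile normalization the median for ♂M-3 against ZM-1 was −0.04. A difference under 0.25 log2 units in either direction was seen for 44, 39 and 42 of the 49 genes. Taken without sign, their median differences in the same order were 0.087, 0.116 and 0.076, beside 0.099, 0.123 and 0.092 over all genes. Only Haus4 differed by more than 1 log2 unit, in ♂M-1 against ZM-1. The arrays of the lines did not overlap for 31 genes (63.3%) in ♂M-1 against ZM-1, where the share over all genes was 48.9%. The same held for 34 genes (69.4%) in ♂M-3 against ZM-1, beside 57.5% of all genes, and for 31 genes (63.3%) in ♂M-1 against ♂M-3, beside 50.5%. These are bulk samples, in which fewer cells in a phase of the cycle and less RNA per cell cannot be told apart.

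**Figure D1:**
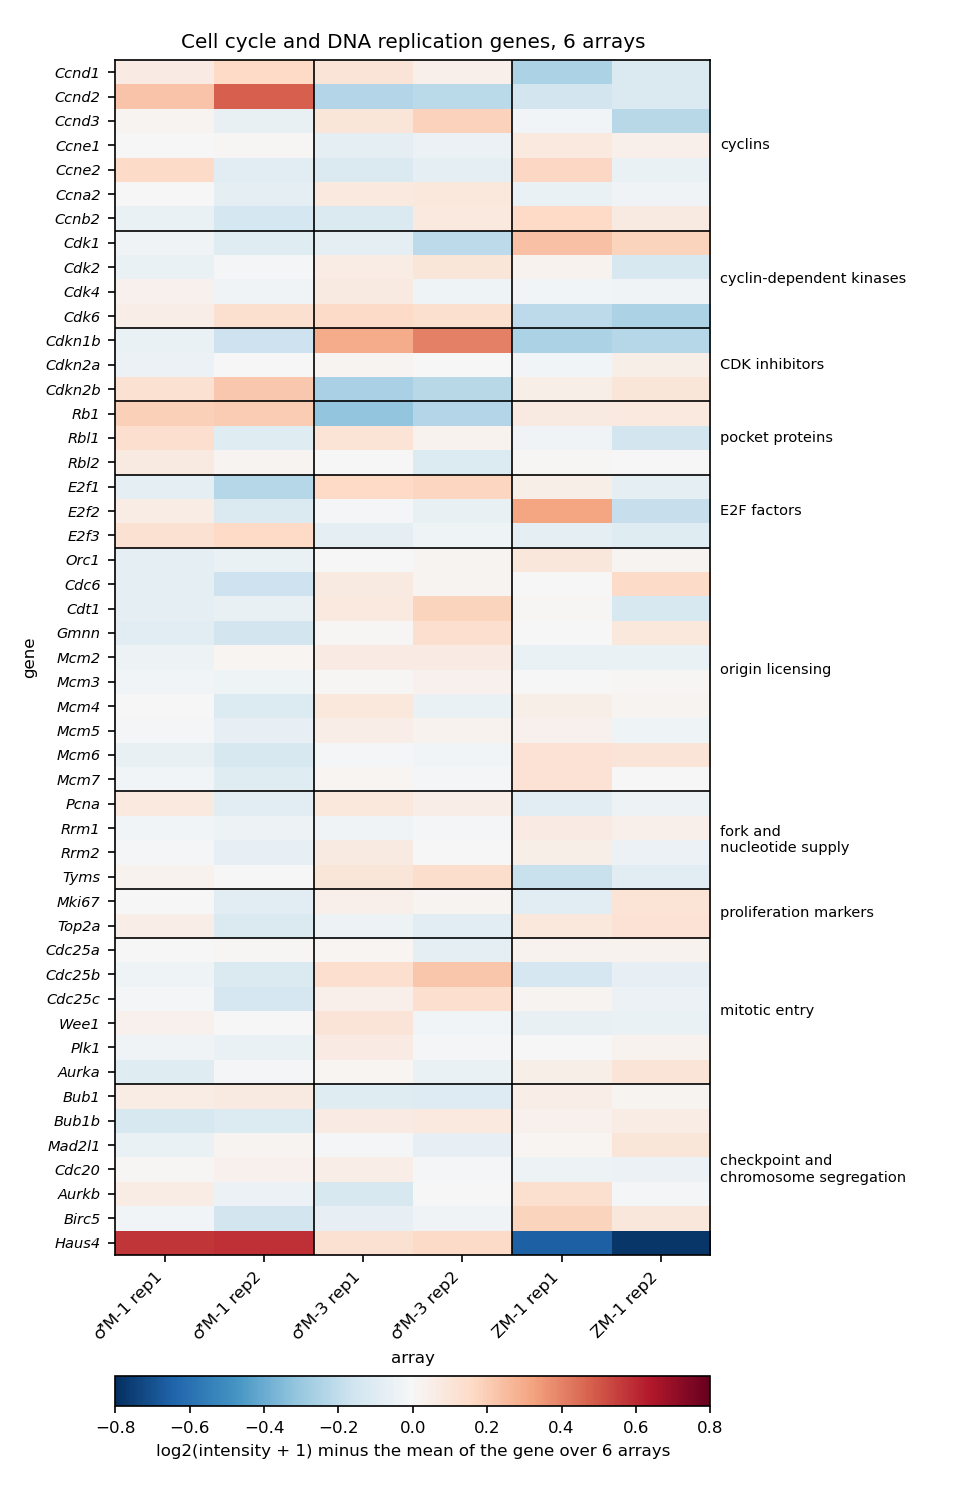
Each row is 1 of the 49 measured genes and each column 1 of the 6 arrays, with ♂M-1 and ♂M-3 left of ZM-1. Colour gives log2(intensity + 1) minus the gene's mean over the 6 arrays. Haus4 runs from high in ♂M-1 to low in ZM-1, and most other rows stay near 0.

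**Figure D2:**
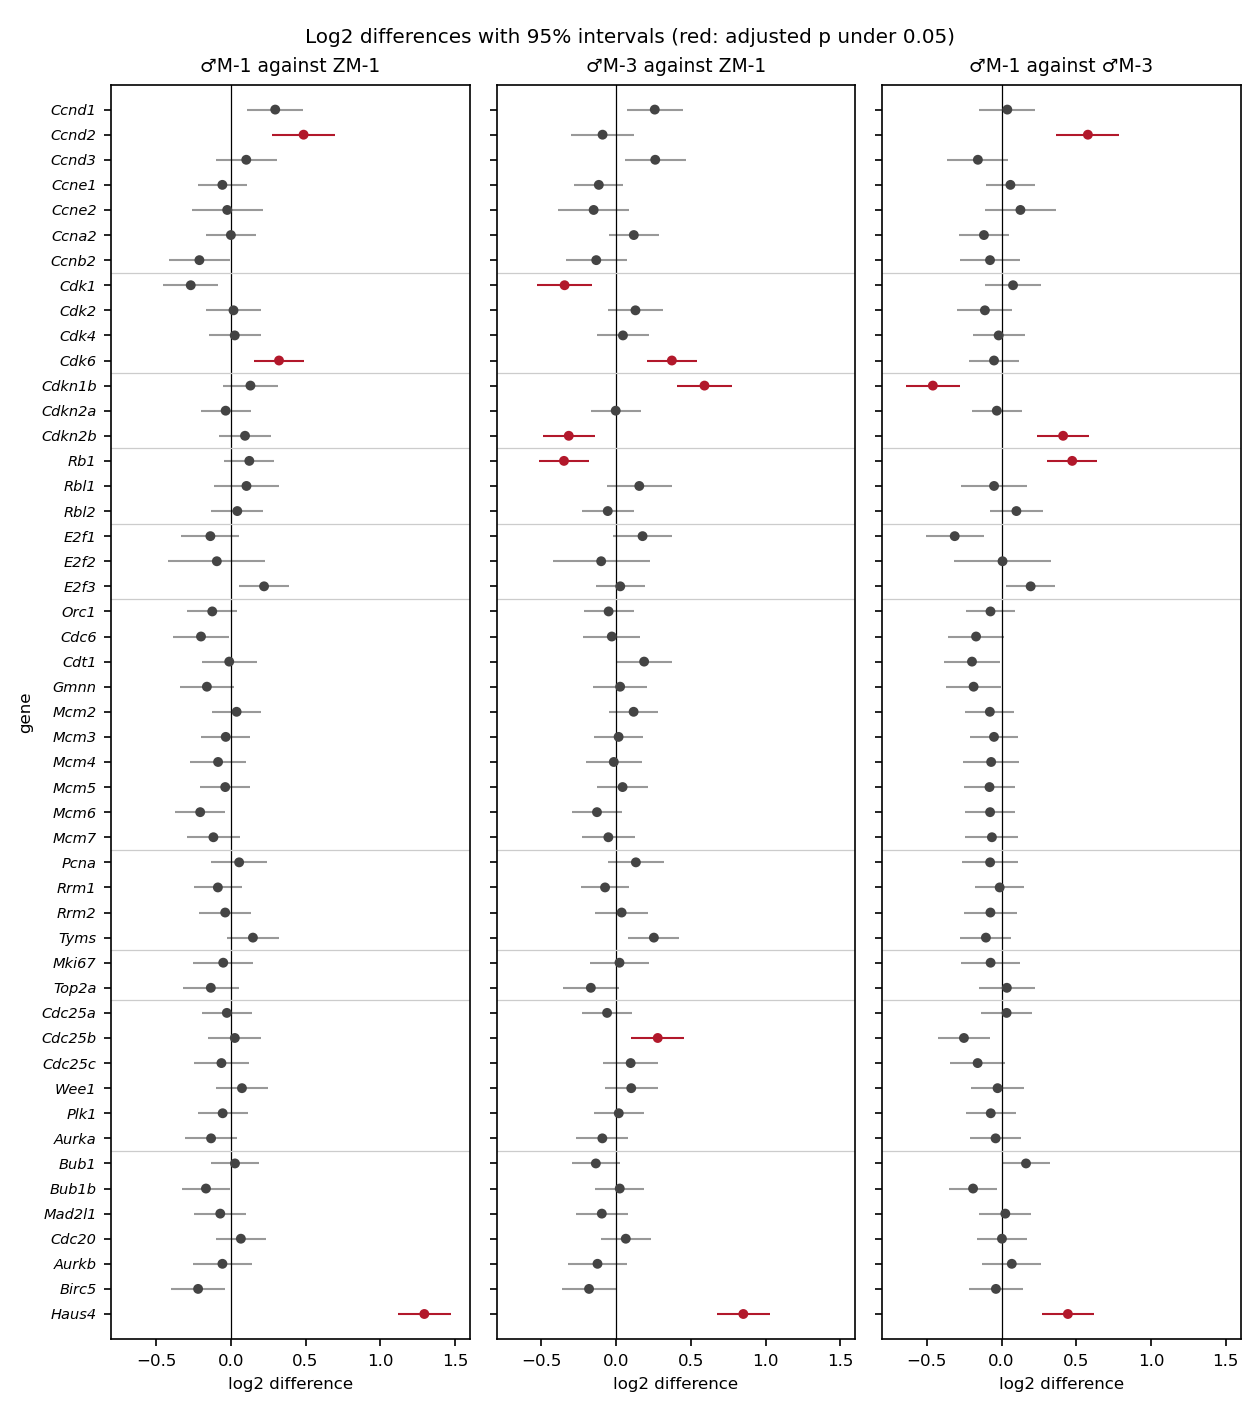
Points give the log2 difference of each gene in the 3 comparisons, with bars for the 95% interval from limma, and red marks an adjusted p under 0.05. In ♂M-1 against ZM-1, 3 genes are red, in ♂M-3 against ZM-1 7 are red, and in ♂M-1 against ♂M-3 5 are red.

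Promoter sequences are shown for 4 genes that stand for different results below: Haus4, which differed most; Cdkn1b, an inhibitor called higher in ♂M-3 than ZM-1; Cdk1, the called mitotic kinase; and Mcm6, a licensing gene that was not called. Each runs 5′ to 3′ on the gene's own strand from 250 bases before the start to 50 bases after it, a window of 300 bases from RefSeq on build GRCm38.p6. Capitals mark 3 motifs, each searched on both strands. The first is the E2F motif, written here as TTTCCCGC, TTTCGCGC, TTTGCCGC or TTTGGCGC. The second is TTTGAA, known as the cell cycle genes homology region (CHR), and the third is CCAAT, which reads ATTGG where it lies on the other strand.
Haus4 (chr14:54554312-54554611, minus strand): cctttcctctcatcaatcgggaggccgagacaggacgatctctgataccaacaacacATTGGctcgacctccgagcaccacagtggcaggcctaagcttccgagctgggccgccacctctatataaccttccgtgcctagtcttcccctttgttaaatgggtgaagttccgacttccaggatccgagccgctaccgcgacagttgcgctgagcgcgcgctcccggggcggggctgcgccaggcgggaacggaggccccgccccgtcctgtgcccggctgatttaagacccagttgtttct
Cdkn1b (chr6:134920151-134920450, plus strand): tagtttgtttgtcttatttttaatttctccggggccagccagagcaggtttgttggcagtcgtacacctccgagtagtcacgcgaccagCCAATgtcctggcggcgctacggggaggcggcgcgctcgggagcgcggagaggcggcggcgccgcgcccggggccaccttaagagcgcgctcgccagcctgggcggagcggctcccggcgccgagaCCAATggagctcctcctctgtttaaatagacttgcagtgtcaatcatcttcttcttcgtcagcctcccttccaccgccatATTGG
Cdk1 (chr10:69352863-69353162, minus strand): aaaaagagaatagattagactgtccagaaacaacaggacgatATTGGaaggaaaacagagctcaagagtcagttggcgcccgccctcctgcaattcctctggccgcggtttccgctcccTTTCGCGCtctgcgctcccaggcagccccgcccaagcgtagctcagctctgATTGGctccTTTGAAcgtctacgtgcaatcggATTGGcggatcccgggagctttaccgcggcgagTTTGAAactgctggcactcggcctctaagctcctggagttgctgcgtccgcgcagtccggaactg
Mcm6 (chr1:128359656-128359955, minus strand): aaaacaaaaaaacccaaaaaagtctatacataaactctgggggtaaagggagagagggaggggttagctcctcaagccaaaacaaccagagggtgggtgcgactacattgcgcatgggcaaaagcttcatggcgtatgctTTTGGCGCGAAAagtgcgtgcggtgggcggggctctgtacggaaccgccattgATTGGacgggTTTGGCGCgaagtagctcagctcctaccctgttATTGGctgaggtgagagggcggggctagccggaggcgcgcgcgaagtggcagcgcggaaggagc

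The Cdk1 window held 1 E2F match 131 bases before the start, CHR matches 71 and 15 bases before it, and CCAAT matches 208, 80 and 48 bases before it. In the Mcm6 window, E2F matches lay 110, 106 and 47 bases before the start, of which the pair at 110 and 106 overlap, and CCAAT matches 57 and 14 bases before it. Haus4 had 1 match, a CCAAT 193 bases before the start. Cdkn1b had CCAAT 161 and 35 bases before the start and an ATTGG after it. Of the 50 genes, 40 had a promoter in the RefSeq table. An E2F match was present in 14 of these 40 (35%), beside 543 of 15614 genes on the array (3.48%). CHR was present in 13 of 40 (32.5%), beside 17.3%, and CCAAT in 28 of 40 (70%), beside 41.7%. Among the called genes with a promoter in the table, the E2F motif was in Cdk1, and CHR was in Cdk1 and Cdkn2b. CCAAT was in Cdk1, Cdkn1b, Haus4 and Cdc25b, and Cdk6 held none of the 3 motifs.

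D-type cyclins, which couple growth signals to the start of the cycle, differed in 1 of their 3 members. Ccnd2, cyclin D2, measured 1179.5 and 1404 in ♂M-1, 856 and 867 in ♂M-3, and 907 and 929 in ZM-1. Both ♂M-1 arrays lay above all others, and the ♂M-3 arrays lay just below those of ZM-1. Ccnd2 was 1.4-fold higher in ♂M-1 than ZM-1 (log2 difference 0.49 ± 0.09 SE, adjusted p = 0.0226) and 1.49-fold higher than ♂M-3 (0.58 ± 0.09, adjusted p = 0.00771), and was not called in ♂M-3 against ZM-1 (−0.09 ± 0.09, adjusted p = 0.572). Its mean in ♂M-1 was 1292 ± 159 (SD, n = 2), and in log2 units its ♂M-1 repeats lay farther apart than those of any other member, by 0.25. The call against ZM-1 was lost without ♂M-1 repeat 2 (adjusted p = 0.141) and without ZM-1 repeat 1 (0.0710) or repeat 2 (0.0595). The call against ♂M-3 was lost without ♂M-1 repeat 2 (adjusted p = 0.0661) and without ♂M-3 repeat 1 (0.0599) or repeat 2 (0.0554).

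Ccnd1, cyclin D1, measured 1249 and 1332 in ♂M-1, 1284 and 1228 in ♂M-3, and 1001 and 1101 in ZM-1. Its ZM-1 arrays lay below the other 4. Neither difference passed the test, at 0.30 ± 0.08 in ♂M-1 against ZM-1 (limma, adjusted p = 0.0840) and 0.26 ± 0.08 in ♂M-3 against ZM-1 (adjusted p = 0.0659). Both passed with a pseudocount of 16 (adjusted p = 0.0453 and 0.0342), and the second also after median centring (0.0433) and with dim genes left out (0.0447). Ccnd3, cyclin D3, was called in no comparison, with 1036 and 979.6 in ♂M-1, 1092 and 1158 in ♂M-3, and 1006 and 874 in ZM-1. Without ZM-1 repeat 1 its difference in ♂M-3 against ZM-1 passed (adjusted p = 0.0415, and 0.0834 with all arrays).

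The cyclins of S phase and mitosis were not called in any comparison by limma, and Ccnb2 alone had an unadjusted p under 0.05 (0.0447 in ♂M-1 against ZM-1). Ccne1, the cyclin E1 that works with Cdk2 at the start of S phase, measured 1622 and 1635 in ♂M-1, 1547 and 1578 in ♂M-3, and 1716 and 1672 in ZM-1. Ccna2, cyclin A2, which acts in S phase and in mitotic entry, measured 2387 and 2280.2 in ♂M-1, 2526 and 2536 in ♂M-3, and 2314 and 2351 in ZM-1. The ♂M-3 arrays were lowest for Ccne1 and highest for Ccna2, by differences from ZM-1 of −0.12 and 0.12 (adjusted p = 0.326 and 0.325). Ccne2, cyclin E2, ranged from 260.4 to 317 over the 6 arrays, and the mitotic cyclin Ccnb2 from 2699 to 3322.

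Of the 4 kinases, Cdk6 and Cdk1 were called and Cdk4 and Cdk2 were not. Cdk6, a partner of D-type cyclins, measured 665 and 699 in ♂M-1, 712 and 700.2 in ♂M-3, and 553 and 538 in ZM-1. The 4 ♂M arrays all lay above both ZM-1 arrays. Cdk6 was 1.25-fold higher in ♂M-1 than ZM-1 (0.32 ± 0.07, adjusted p = 0.0454) and 1.29-fold higher in ♂M-3 than ZM-1 (0.37 ± 0.07, adjusted p = 0.0108). These comparisons share the ZM-1 arrays. The call for ♂M-1 was lost when any 1 of the 6 arrays was left out: adjusted p = 0.119 and 0.218 without ♂M-1 repeats 1 and 2, 0.0840 without either ♂M-3 repeat, and 0.0924 and 0.134 without ZM-1 repeats 1 and 2. It was also lost with quantile normalization (adjusted p = 0.0681), and the call for ♂M-3 was lost without ♂M-3 repeat 1 (0.0721) or repeat 2 (0.0617). Between ♂M-1 and ♂M-3 the difference in Cdk6 was −0.05 (95% interval −0.22 to 0.12, adjusted p = 0.792).

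Cdk1, the kinase that drives mitosis, measured 2279 and 2168 in ♂M-1, 2213 and 2007 in ♂M-3, and 2727 and 2627 in ZM-1. Both ZM-1 arrays lay above the other 4. Cdk1 was 1.27-fold lower in ♂M-3 than ZM-1 (−0.35 ± 0.08, adjusted p = 0.0217), and its difference of −0.27 in ♂M-1 against ZM-1 did not pass (limma, adjusted p = 0.108). The call was lost without ♂M-3 repeat 2 (adjusted p = 0.157), ZM-1 repeat 1 (0.0742) or ZM-1 repeat 2 (0.0510). Cdk4, the other partner of D-type cyclins, measured 4433 and 4251 in ♂M-1, 4565 and 4239 in ♂M-3, and 4277 and 4248 in ZM-1, with overlapping arrays in all 3 comparisons. Cdk2, the partner of cyclins E and A, measured 1003 and 1035 in ♂M-1, 1087 and 1114 in ♂M-3, and 1062 and 954 in ZM-1, with no call.

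Among the CDK inhibitors, Cdkn1b and Cdkn2b moved in opposite directions in ♂M-3. Cdkn1b, which encodes p27, an inhibitor of Cdk2 complexes, measured 336 and 310.0 in ♂M-1, 429 and 461 in ♂M-3, and 293 and 297 in ZM-1. Both ♂M-3 arrays lay above all others, and the ♂M-1 arrays lay just above those of ZM-1. Cdkn1b was 1.51-fold higher in ♂M-3 than ZM-1 (0.59 ± 0.08, adjusted p = 0.00176), a call that held under all 14 alternatives tried. It was 1.38-fold lower in ♂M-1 than ♂M-3 (−0.46 ± 0.08, adjusted p = 0.0114), which was lost without ♂M-1 repeat 2 (0.111) or ♂M-3 repeat 2 (0.101). In ♂M-1 against ZM-1 the difference was 0.13 (limma, adjusted p = 0.415).

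Cdkn2b, which encodes p15, an inhibitor of Cdk4 and Cdk6, measured 122 and 131 in ♂M-1, 93.4 and 95.9 in ♂M-3, and 116 and 120.1 in ZM-1. Here the ♂M-3 arrays were the lowest. Cdkn2b was 1.25-fold lower in ♂M-3 than ZM-1 (−0.32 ± 0.08, adjusted p = 0.0232) and 1.33-fold higher in ♂M-1 than ♂M-3 (0.41 ± 0.08, adjusted p = 0.0145). The first call was lost without ♂M-3 repeat 1 (adjusted p = 0.125) or 2 (0.0985) or ZM-1 repeat 2 (0.0879), and the second without ♂M-1 repeat 2 (0.126) or ♂M-3 repeat 1 (0.106) or 2 (0.0829). Cdkn2a, which lies beside Cdkn2b in the genome and encodes p16 and p19Arf, ranged from 104 to 111 over the 6 arrays and was called in no comparison (limma, adjusted p = 0.847 in ♂M-1 against ZM-1, 0.985 in ♂M-3 against ZM-1 and 0.878 in ♂M-1 against ♂M-3).

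Pocket proteins bind E2F factors and hold their targets off. Rb1, the retinoblastoma protein, measured 298 and 301 in ♂M-1, 209 and 222 in ♂M-3, and 275 and 275 in ZM-1. The 3 lines did not overlap, with ♂M-3 lowest. Rb1 was 1.27-fold lower in ♂M-3 than ZM-1 (−0.35 ± 0.07, adjusted p = 0.0141) and 1.39-fold higher in ♂M-1 than ♂M-3 (0.47 ± 0.07, adjusted p = 0.00676), and was not called in ♂M-1 against ZM-1 (0.12, adjusted p = 0.403). The first call was lost without ♂M-3 repeat 1 (adjusted p = 0.103) or repeat 2 (0.0535), and the second without ♂M-1 repeat 2 (0.0660) or ♂M-3 repeat 1 (0.0690). Rbl2, which encodes p130, measured 148 and 143 in ♂M-1, 142 and 131 in ♂M-3, and 142 and 141 in ZM-1. Rbl1, which encodes p107, ranged from 359 to 437, and neither was called. Beside the calls in ♂M-3, the summed fibroblast markers were 2743 and 2664 in ♂M-3, against 4278 and 4010 in ♂M-1 and 4610.2 and 4468 in ZM-1, and their part in these results was not tested.

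Of the E2F factors, 0 of 3 were called by limma in any comparison, and unadjusted p-values were under 0.05 for 1 of them in ♂M-1 against ZM-1 and 2 in ♂M-1 against ♂M-3. E2f1, an activator of S-phase genes, measured 706 and 631 in ♂M-1, 826 and 833 in ♂M-3, and 766 and 703 in ZM-1. The ♂M-3 arrays lay above the other 4. In ♂M-1 against ♂M-3 its difference was −0.31 ± 0.09 (adjusted p = 0.0690), which passed with a pseudocount of 16 (adjusted p = 0.0362) and among the genes above the 25th percentile alone (0.0438). E2f3, another activator, measured 568 and 583 in ♂M-1, 496 and 509.5 in ♂M-3, and 497 and 489 in ZM-1, highest in both ♂M-1 arrays by 0.22 against ZM-1 (adjusted p = 0.131). E2f2 ranged from 114 to 161, and both of those arrays were from ZM-1.

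**Figure D3:**
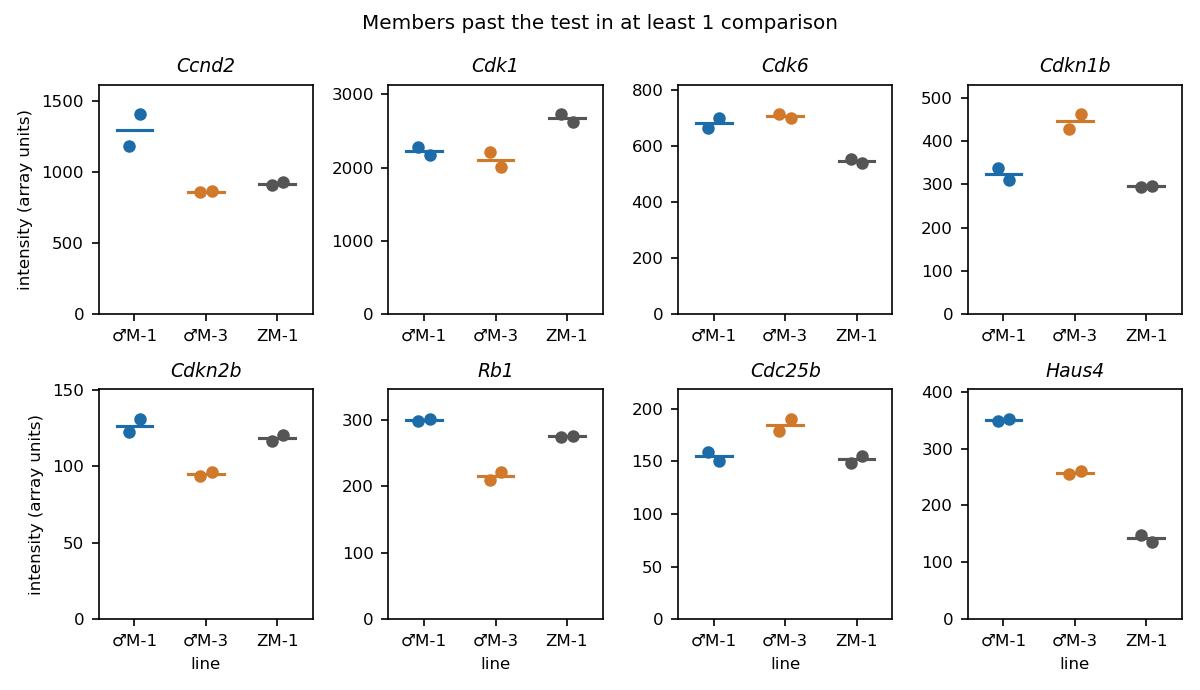
Intensity of the 8 genes called in at least 1 comparison is plotted by line, with ♂M-1 and ♂M-3 left of ZM-1. Points are the 2 arrays of a line, on axes that start at 0. Haus4 steps down across the lines from 349 and 352 in ♂M-1, Ccnd2 stands out in ♂M-1, Cdkn1b is highest in ♂M-3, and Rb1 and Cdkn2b are lowest there.

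Origin licensing loads the MCM helicase onto DNA through the origin recognition complex, Cdc6 and Cdt1, while geminin blocks Cdt1. None of the 10 licensing genes was called by limma in any comparison, and unadjusted p-values were under 0.05 for 2 of them in ♂M-1 against ZM-1, 1 in ♂M-3 against ZM-1 and 2 in ♂M-1 against ♂M-3. Mcm2, a helicase subunit, measured 2613 and 2724 in ♂M-1, 2814 and 2817 in ♂M-3, and 2599 and 2594 in ZM-1. Mcm6, another subunit, measured 1524 and 1458 in ♂M-1, 1578 and 1566 in ♂M-3, and 1725 and 1712 in ZM-1. The order of the lines thus differed between these subunits, with ♂M-3 highest for Mcm2 and ZM-1 highest for Mcm6, by limma differences of 0.12 and −0.13 in ♂M-3 against ZM-1 (adjusted p = 0.327 and 0.283).

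The proteins that load the helicase were as close. Orc1, a subunit of the origin recognition complex, measured 618 and 629 in ♂M-1, 649.8 and 662 in ♂M-3, and 695 and 664 in ZM-1. Cdc6, the loading ATPase, measured 338 and 318 in ♂M-1, 376 and 363 in ♂M-3, and 357 and 398 in ZM-1. Both ♂M-1 arrays were the lowest for Orc1 and for Cdc6. Cdt1, the other loading factor, measured 1367 and 1383 in ♂M-1, 1522 and 1633 in ♂M-3, and 1452 and 1321 in ZM-1. Gmnn, geminin, measured 123 and 117 in ♂M-1, 131 and 143 in ♂M-3, and 131 and 138 in ZM-1. Cdt1 was highest in ♂M-3, and geminin was lowest in ♂M-1.

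All 10 licensing genes had a difference below 0 in ♂M-1 against ♂M-3, between −0.20 and −0.05. The sign was the same for all 10 under each of the 14 alternatives, but several of these cannot change it. Among them are the low-intensity filter, the variance prior, the replicate block and leaving out a ZM-1 array, which keep the difference as it was. In the same comparison 32 of the 49 members lay below 0 and 17 above, and 10976 of all 19938 genes lay below 0 and 8962 above. The median of the 10 licensing genes was −0.08, beside −0.05 over the 49 members and −0.02 over all genes. In ♂M-1 against ZM-1, 9 of 10 were below 0 (median −0.10), or 8 after median centring and without ZM-1 repeat 1, and in ♂M-3 against ZM-1 the signs were 5 and 5. The 95% intervals of the 10 genes together reached from −0.39 to 0.20 in ♂M-1 against ZM-1, from −0.29 to 0.37 in ♂M-3 against ZM-1 and from −0.38 to 0.12 in ♂M-1 against ♂M-3. The other helicase subunits stayed within narrow ranges over the 6 arrays. Mcm3 ranged from 1536 to 1612, Mcm4 from 1702 to 1946, Mcm5 from 1891 to 2056 and Mcm7 from 2307 to 2669.

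At the fork, Pcna, the sliding clamp that holds the DNA polymerases, measured 3537 and 3145 in ♂M-1, 3550.0 and 3483 in ♂M-3, and 3162 and 3257 in ZM-1. Its ♂M-1 repeats lay farther apart than the means of the other lines, 3516 ± 47.7 in ♂M-3 and 3209 ± 67.2 in ZM-1 (SD, n = 2 each). Rrm2, the regulated subunit of ribonucleotide reductase, which makes deoxynucleotides, measured 2604 and 2502 in ♂M-1, 2751 and 2625 in ♂M-3, and 2709 and 2534 in ZM-1, and Rrm1, its large subunit, ranged from 1839 to 1982. Tyms, thymidylate synthase, measured 930.0 and 909 in ♂M-1, 972 and 1006 in ♂M-3, and 805 and 856 in ZM-1. The 4 ♂M arrays of Tyms lay above those of ZM-1, but its difference of 0.25 ± 0.08 in ♂M-3 against ZM-1 did not pass (limma, adjusted p = 0.0530). It passed with a pseudocount of 16 (adjusted p = 0.0220), after median centring (0.0351) and with dim genes left out (0.0345). None of these 4 genes was called by limma, and 1 of them, Tyms, had an unadjusted p under 0.05, in ♂M-3 against ZM-1.

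The markers most often used to score dividing cells, Mki67 and Top2a, were called in no comparison by limma, and neither had an unadjusted p under 0.05. Mki67, the Ki-67 antigen, measured 1556 and 1470.5 in ♂M-1, 1600.1 and 1582 in ♂M-3, and 1461 and 1681 in ZM-1. Top2a, the topoisomerase that untangles chromosomes, measured 2194 and 1953 in ♂M-1, 2054 and 1985 in ♂M-3, and 2248 and 2294 in ZM-1. The ZM-1 repeats of Mki67 spanned all other arrays, while Top2a was highest in both ZM-1 arrays. The 95% intervals of both genes together reached from −0.32 to 0.15 in ♂M-1 against ZM-1, from −0.36 to 0.22 in ♂M-3 against ZM-1 and from −0.27 to 0.22 in ♂M-1 against ♂M-3.

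Entry into mitosis is set by CDC25 phosphatases, which activate Cdk1, and by Wee1, which restrains it. Cdc25b was the called gene of 6. It measured 159 and 151 in ♂M-1, 179 and 190.0 in ♂M-3, and 148 and 155 in ZM-1, so that both ♂M-3 arrays lay above the rest. Cdc25b was 1.21-fold higher in ♂M-3 than ZM-1 (0.28 ± 0.08, adjusted p = 0.0419). Leaving out any 1 array ended this call, with adjusted p between 0.0593 and 0.224, and so did quantile normalization (0.0627). In ♂M-1 against ♂M-3 its difference was −0.25 (limma, adjusted p = 0.104).

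The other mitotic entry genes were not called by limma, and none had an unadjusted p under 0.05. Cdc25a measured 1091 and 1101 in ♂M-1, 1106 and 1036 in ♂M-3, and 1117 and 1115 in ZM-1, and Cdc25c ranged from 194 to 233. Wee1, the inhibitory kinase, measured 1316 and 1278 in ♂M-1, 1379 and 1265 in ♂M-3, and 1229 and 1234 in ZM-1. Both ZM-1 arrays of Wee1 were the lowest, by differences of 0.07 and 0.10 in ♂M-1 and ♂M-3 (adjusted p = 0.652 and 0.435). Plk1, the polo-like kinase of mitotic entry and exit, measured 1694 and 1663 in ♂M-1, 1812 and 1718 in ♂M-3, and 1726 and 1761 in ZM-1. Aurka, the spindle pole kinase Aurora A, measured 1004 and 1060.1 in ♂M-1, 1086 and 1036 in ♂M-3, and 1110.0 and 1152 in ZM-1. It was highest in both ZM-1 arrays without passing the test.

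Of the 7 genes of the checkpoint and of chromosome segregation, Haus4 was called and 6 were not. Bub1, a kinase of the spindle checkpoint, measured 2348 and 2369 in ♂M-1, 2108 and 2102 in ♂M-3, and 2339.5 and 2287 in ZM-1. Its repeats lay close together, and ♂M-3 was lowest, by −0.14 against ZM-1 (limma, adjusted p = 0.247). Cdc20, the activator of the anaphase-promoting complex, measured 801 and 816 in ♂M-1, 827 and 788 in ♂M-3, and 772 and 771 in ZM-1. Birc5, survivin, a subunit of the chromosomal passenger complex, measured 441 and 404 in ♂M-1, 428 and 438 in ♂M-3, and 507 and 476 in ZM-1. Both ZM-1 arrays of Birc5 lay above the other 4, and its difference of −0.18 in ♂M-3 against ZM-1 (adjusted p = 0.169) passed after quantile normalization alone (0.0478). Bub1b, the checkpoint protein BubR1, ranged from 941 to 1082, with both ♂M-1 arrays lowest. Mad2l1, which encodes the checkpoint protein Mad2, ranged from 1539.9 to 1719.7, and Aurkb, the kinase Aurora B of the passenger complex, from 1458 to 1745.

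Haus4 gave the largest difference of the 49 genes in both comparisons with ZM-1. It encodes a subunit of augmin, the complex that branches new microtubules from existing ones in the spindle. Haus4 measured 349 and 352 in ♂M-1, 255 and 260.0 in ♂M-3, and 149 and 136 in ZM-1. The 3 lines did not overlap, and the mean was 350.4 ± 1.7 for ♂M-1, 257 ± 3.82 for ♂M-3 and 142 ± 8.88 for ZM-1 (SD, n = 2 each). It was 2.45-fold higher in ♂M-1 than ZM-1 (log2 difference 1.29 ± 0.08 SE, adjusted p = 4.43e-05), 1.8-fold higher in ♂M-3 than ZM-1 (0.85 ± 0.08, adjusted p = 0.000193) and 1.36-fold higher in ♂M-1 than ♂M-3 (0.44 ± 0.08, adjusted p = 0.0112). Both calls against ZM-1 held under all 14 alternatives tried. The call between the ♂M lines was lost without ♂M-1 repeat 1 (adjusted p = 0.0582) or 2 (0.0957) and without ♂M-3 repeat 1 (0.0862) or 2 (0.0705).

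No other measured augmin subunit was called. Haus1, Haus2, Haus5, Haus6, Haus7 and Haus8 had adjusted p between 0.102 and 0.936 by limma over the 3 comparisons, and Haus5 alone had an unadjusted p under 0.05 (0.0238 in ♂M-3 against ZM-1). Haus3 was not analysed here. Haus5 was 470.1 and 488 in ♂M-1, 519 and 549 in ♂M-3, and 482 and 432 in ZM-1. Haus1 was 425 and 446 in ♂M-1, 415 and 445 in ♂M-3, and 507 and 469.7 in ZM-1. The differences of Haus5 in ♂M-3 against ZM-1 (0.23) and of Haus1 in the same comparison (−0.18) had opposite signs.

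On chromosome 14, where the 3 nearest measured genes on each side of Haus4 were looked up in the RefSeq order, its next neighbour Ajuba was also called. Ajuba, a LIM-domain adaptor protein, measured 670.3 and 654 in ♂M-1, 573 and 606 in ♂M-3, and 457 and 462 in ZM-1. Its lines kept the order seen for Haus4 with smaller steps, 0.53 ± 0.07 in ♂M-1 against ZM-1 (limma, adjusted p = 0.00553), 0.36 ± 0.07 in ♂M-3 against ZM-1 (0.0131) and 0.17 ± 0.07 in ♂M-1 against ♂M-3 (0.253). The first call was lost without ♂M-1 repeat 2 (adjusted p = 0.0503), and the second without ♂M-3 repeat 1 (0.0506) or 2 (0.102). Prmt5, an arginine methyltransferase and the neighbour on the other side, measured 2701 and 2706 in ♂M-1, 2668 and 2711 in ♂M-3, and 2230.0 and 2270.3 in ZM-1. It was called higher in ♂M-3 than ZM-1 (0.26 ± 0.07, adjusted p = 0.0413), a call lost when any 1 array was left out (adjusted p from 0.0617 to 0.187), and had the same 0.26 in ♂M-1 against ZM-1 (0.0782). Psmb5, a proteasome subunit, was called higher in ♂M-3 than ZM-1 (0.34, adjusted p = 0.0231), which was lost without ♂M-3 repeat 1 (0.0797) or 2 (0.140), without ZM-1 repeat 2 (0.106) and after quantile normalization (0.0617). Lrp10, Rem2 and 4931414P19Rik were called in no comparison.

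**Figure D4:**
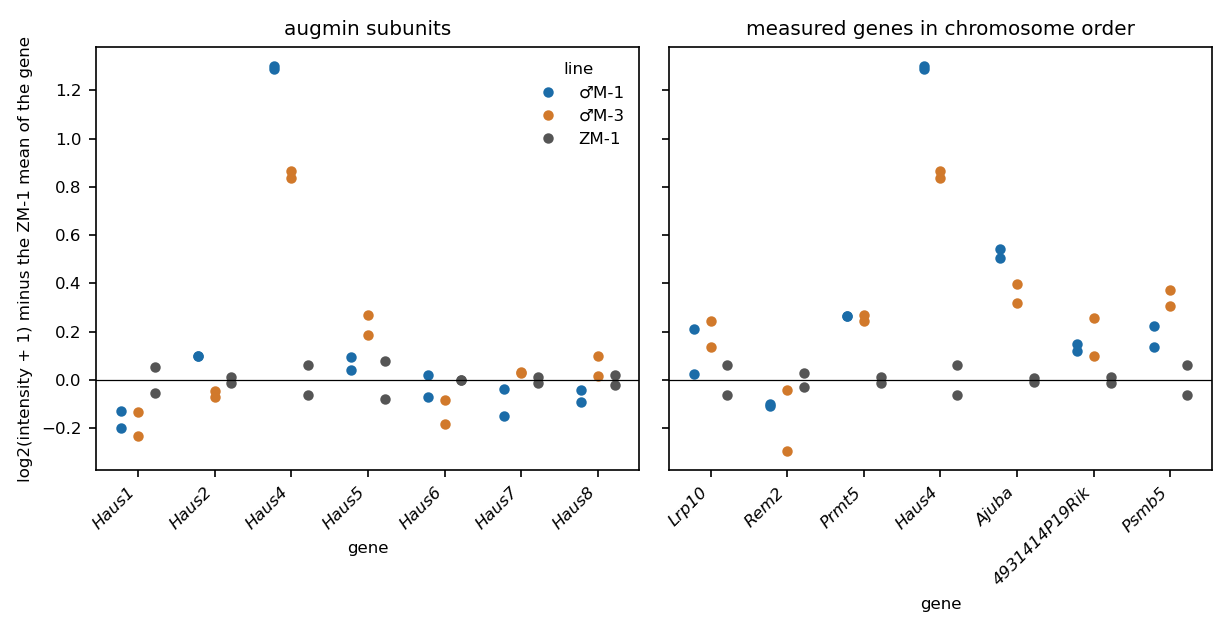
Points are single arrays, as log2(intensity + 1) minus the ZM-1 mean of the gene, for the augmin subunits in one panel and for the genes around Haus4 on chromosome 14 in the other. Haus4 stands apart from the other augmin subunits in both ♂M lines, and Ajuba steps in the same order with smaller differences.

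Wider lists of the same pathways were set beside the 49 genes. They held 107 measured genes of 110: replication fork and origin proteins (40), further G1 and S regulators (20) and further mitotic genes (47). In ♂M-1 against ZM-1, 0 were called higher and 2 lower by limma (1.87%), in ♂M-3 against ZM-1 7 higher and 5 lower (11.2%), and in ♂M-1 against ♂M-3 2 higher and 2 lower (3.74%). The shares over all genes were 4.41%, 15.9% and 6.54%. Their median differences were −0.04, 0.00 and −0.04. Unadjusted limma p-values were under 0.05 for 5, 1 and 8 genes of the 3 lists in ♂M-1 against ZM-1, for 7, 5 and 13 in ♂M-3 against ZM-1, and for 7, 5 and 14 in ♂M-1 against ♂M-3. Over all 19938 genes the same held for 3981, 5980 and 3943.

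Pttg1, securin, which guards sister chromatids until anaphase, differed most in these lists. It measured 398 and 346 in ♂M-1, 136 and 127 in ♂M-3, and 786 and 589 in ZM-1. The 3 lines did not overlap. Pttg1 was 1.83-fold lower in ♂M-1 than ZM-1 (−0.87 ± 0.13, adjusted p = 0.00754), 5.13-fold lower in ♂M-3 than ZM-1 (−2.36 ± 0.13, adjusted p = 1.71e-05) and 2.8-fold higher in ♂M-1 than ♂M-3 (1.49 ± 0.13, adjusted p = 0.000431). The first of these was lost without ♂M-1 repeat 2 (adjusted p = 0.0929), and the other two held under all 14 alternatives.

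Gins2, a subunit of the replicative helicase, measured 502 and 559 in ♂M-1, 495 and 497 in ♂M-3, and 696 and 659 in ZM-1. It was lower in ♂M-3 than ZM-1 (−0.45 ± 0.08, adjusted p = 0.00743), which did not hold without ♂M-3 repeat 1 (0.0510), and lower in ♂M-1 than ZM-1 (−0.35 ± 0.08, adjusted p = 0.0473), a call lost when any 1 array was left out (0.0827 to 0.224). Myc, a growth-promoting transcription factor, measured 287 and 323 in ♂M-1, 205 and 213 in ♂M-3, and 338 and 287 in ZM-1. Myc was lowest in ♂M-3, by −0.57 ± 0.10 against ZM-1 (adjusted p = 0.00582, kept under all 14 alternatives) with a difference of 0.54 in ♂M-1 against ♂M-3 (0.0145). The second of these was lost without ♂M-1 repeat 2 (adjusted p = 0.139) or ♂M-3 repeat 1 (0.0993) or 2 (0.0728). Cdkn2c, which encodes the inhibitor p18, lay below the median of all genes, at 40.2 and 41.3 in ♂M-1, 53.1 and 47.4 in ♂M-3, and 40.6 and 32.6 in ZM-1. Its call in ♂M-3 against ZM-1 (0.45, adjusted p = 0.0235) was lost without ♂M-3 repeat 1 (0.141) or 2 (0.0556) or ZM-1 repeat 2 (0.104).

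Among further mitotic genes, Anln and Cdca3 were highest in ♂M-3 and Cenpf was lowest there. Anln, the scaffold protein anillin of the cleavage furrow, measured 1139 and 1068 in ♂M-1, 1655 and 1549.9 in ♂M-3, and 1138 and 1184 in ZM-1. It was higher in ♂M-3 than ZM-1 (0.46 ± 0.08, adjusted p = 0.00522) and lower in ♂M-1 than ♂M-3 (−0.54 ± 0.08, adjusted p = 0.00507), calls lost without ♂M-3 repeat 1 (0.0501 and 0.0524) and, for the second, without ♂M-1 repeat 2 (0.0631). Cdca3, a trigger of mitotic entry, measured 723 and 637 in ♂M-1, 971 and 1001 in ♂M-3, and 799 and 769 in ZM-1, and was lower in ♂M-1 than ♂M-3 (−0.54 ± 0.08, adjusted p = 0.00697). That call was lost without ♂M-1 repeat 2 (adjusted p = 0.0724) or ♂M-3 repeat 2 (0.0616). In ♂M-3 against ZM-1, Cdca3 was called higher in ♂M-3 (0.33 ± 0.08, adjusted p = 0.0304). Cenpf, a kinetochore protein, measured 729.6 and 749 in ♂M-1, 656 and 652 in ♂M-3, and 874 and 898 in ZM-1, lower in ♂M-3 than ZM-1 under all 14 alternatives (−0.44 ± 0.07, adjusted p = 0.00459). The remaining calls of the wider lists in ♂M-3 against ZM-1 were smaller. Cdc7 (0.36, adjusted p = 0.0274), E2f5 (0.37, 0.0182), Kif18a (0.32, 0.0223) and Pold2 (0.28, 0.0390) were higher in ♂M-3, and Rpa2 (−0.28, 0.0404) was lower. Cdc7 is a kinase that fires origins, E2f5 an E2F family member, Kif18a a mitotic kinesin, Pold2 a subunit of DNA polymerase delta and Rpa2 a subunit of the single-strand binding complex RPA. These 5 calls and that of Cdca3 were lost without ♂M-3 repeat 1 and without ♂M-3 repeat 2. The call of Rpa2 was lost when any 1 array was left out, and that of Pold2 with any but ZM-1 repeat 1. Kif18a and Cdca3 also lost theirs without either ZM-1 repeat, and Cdc7 and E2f5 without ZM-1 repeat 2. Quantile normalization ended the calls of Pold2, Kif18a and Cdca3, and median centring that of Rpa2. Beside these differences of ♂M-3 the fibroblast markers summed to 2743 and 2664 in ♂M-3, against 4278 and 4010 in ♂M-1 and 4610.2 and 4468 in ZM-1, and their part was not tested.

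**Figure D5:**
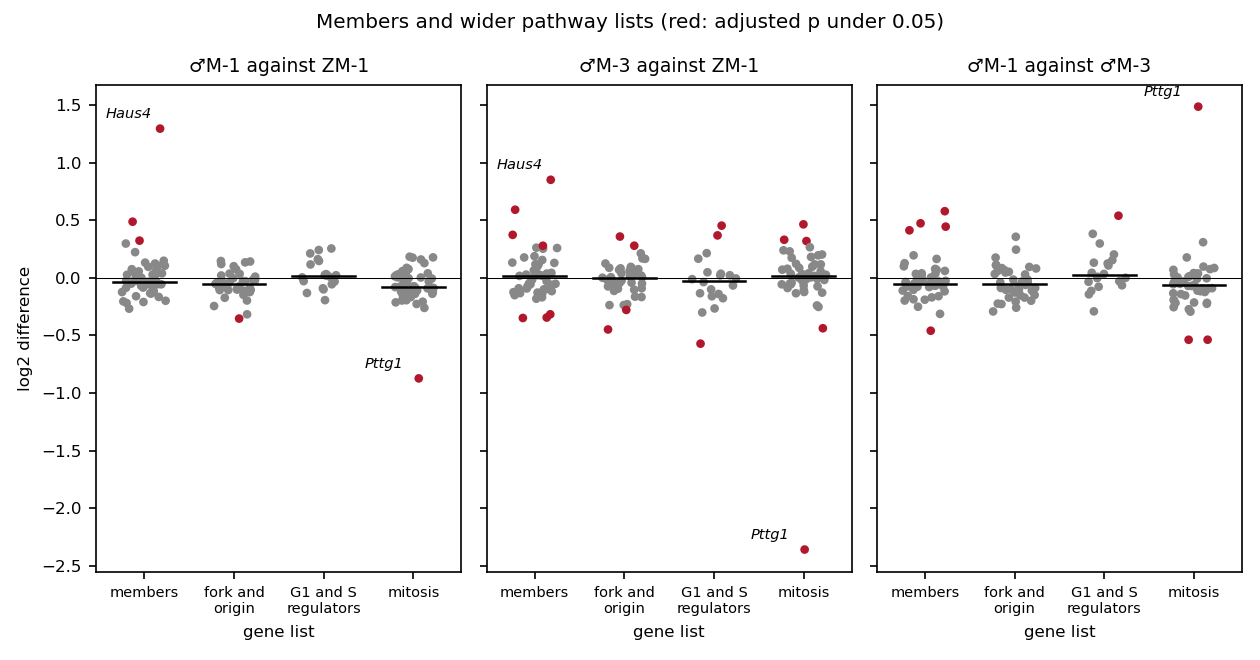
Points are log2 differences of single genes in the 3 comparisons, for the 49 members and the 3 wider pathway lists, with red for an adjusted p under 0.05. Most genes lie near 0, and Pttg1, at −2.36 in ♂M-3 against ZM-1 and 1.49 in ♂M-1 against ♂M-3, lies farthest out.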

How the data were processed

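The values used are linear intensities from the deposited series matrix, for 35556 probe sets on 6 arrays. The submitters' processing notes name GCOS 1.4. For background correction, summarisation, normalization and genome build, the sources used here give nothing. Array medians lay between 67.2 and 71.3, and those of ZM-1 (70.6 and 71.3) lay above those of all ♂M arrays. This offset cannot be told apart from line. No scaling was added, and median centring was run as an alternative. Arrays have no counting depth, and their number limits the precision.

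The annotation of the array gave 1 symbol for 21789 probe sets, several for 1621 and none for 12146. Keeping the brightest single-symbol probe set per gene left 19938 genes, 999 of them with several. Log2(intensity + 1) was fitted with limma 3.58.1 in R 4.3.3, with 1 mean per line over all 6 arrays (3 residual and 6.01 prior degrees of freedom). The code was tested on simulated data. Every called member was described, with a set of further members covering each role and, per comparison, up to 6 called genes of the wider lists with the largest differences; the other calls of those lists were named after their values were seen. Members and lists were chosen with earlier results of these data known, so their counts are descriptions. Promoters came from the RefSeq table of GRCm38.p6, which also gave the order of genes on chromosomes. Alternatives changed the pseudocount, centring, quantile normalization, low-intensity filter, probe set rule, variance prior, replicate block and arrays used.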

Additional observations from a re-analysis of the deposited data

How the results depend on the processing

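No called difference of a member changed its sign under any alternative run. Several alternatives, such as the variance prior and the low-intensity filter, change the test and not the difference. With an intensity trend and robust prior, limma called 1694 genes in ♂M-1 against ZM-1 and 1997 in ♂M-1 against ♂M-3, along with 8 members in each of these comparisons and 11 in ♂M-3 against ZM-1, and the cause was not tested. The members it added were Ccnd1, Ccnb2, Cdk1, E2f3 and Mcm6 in ♂M-1 against ZM-1, Ccnd1, Ccnd3, Cdt1 and Tyms in ♂M-3 against ZM-1, and E2f1, Bub1 and Bub1b in ♂M-1 against ♂M-3. Leaving out 1 array at a time, with fewer arrays in each fit, left between 234 and 631 genes in ♂M-1 against ZM-1, between 1302 and 2750 in ♂M-3 against ZM-1 and between 357 and 1495 in ♂M-1 against ♂M-3. Members called ranged from 1 to 2, from 2 to 6 and from 0 to 5 in these comparisons. Median centring gave 531 genes higher and 409 lower in ♂M-1 against ZM-1 (56.5% higher), beside 376 and 504 as deposited (42.7% higher), and the median log2 difference of all genes was then 0.02, beside −0.01 as deposited.

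The replicate numbers did not pair the arrays: deviations of the same number correlated at −0.03 between ♂M-1 and ♂M-3, 0.07 between ♂M-1 and ZM-1 and −0.10 between ♂M-3 and ZM-1. With the replicate block, 686, 2769 and 1071 genes and 2, 6 and 5 members were called in the 3 comparisons, in the order of the preceding ranges. The block ended the calls of Cdk6 (adjusted p = 0.0748) and Gins2 (0.0749) in ♂M-1 against ZM-1, and of Cdc25b (0.0629), Prmt5 (0.0636), Pold2 (0.0584) and Rpa2 (0.0622) in ♂M-3 against ZM-1. It ended no other call of a gene named in the comparisons of members, wider lists and neighbours. Crossing the numbers of ♂M-3, chosen after seeing the data, gave 3230 genes and 7 members in ♂M-3 against ZM-1. The other alternatives kept the total number of genes and of members called in each comparison within 1.5 times its value. Genes called higher in ♂M-1 against ZM-1 alone numbered 578 with a pseudocount of 16 and 238 with the 2 compared lines alone, beside 376. Levels of background were not used here, which limits what can be said of dim genes such as Cdkn2c.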

Other observations

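For 4 members the array had a second probe set with the same symbol, which was not used above. The second sets of Cdkn1b and Top2a were dim, between 17.8 and 24.7 and between 20.2 and 26.4 over the 6 arrays, near the lower quartile of the arrays (23.8 to 25.1). The second set of E2f3 measured 124 and 107 in ♂M-1, 123 and 114 in ♂M-3, and 105 and 104 in ZM-1. There, unlike in the set used, ♂M-1 repeat 2 lay below both ♂M-3 arrays. The second set of Pcna lay between 3155 and 3548, and in each array came close to the set used. Whether either set also reads a near-identical copy of Pcna was not tested.

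Among the markers of other cell types, primitive endoderm markers summed to between 470 and 560.4 over the 6 arrays, trophectoderm markers to between 1233 and 1357, and neural markers to between 568 and 627. Within the trophectoderm list limma called Tfap2c higher in ♂M-1 (0.77, adjusted p = 0.00366) and ♂M-3 (0.84, 0.000879) against ZM-1, and Krt18 lower in both (−0.54, 0.0101, and −0.59, 0.00252). Dcn, decorin, the fibroblast marker that differed most, measured 237 and 191 in ♂M-1, 96.5 and 112 in ♂M-3, and 596 and 546 in ZM-1. Lum, lumican, another fibroblast marker, stayed between 12.6 and 17.6, below the lower quartile of the arrays. Zfp42, which encodes the ES cell marker Rex1, measured 283 and 299 in ♂M-1, 673 and 668 in ♂M-3, and 263 and 280.0 in ZM-1, 2.47-fold higher in ♂M-3 than in ZM-1 (limma, log2 difference 1.30 ± 0.08, adjusted p = 2.4e-05).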
